A study of Homo sapiens and Mus musculus with 13 samples.

Results

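The 2 NT2 DRIP-seq libraries of the series differ in the restriction enzymes that cut the genomic DNA before hybrids were recovered. One was cut with HindIII, EcoRI, BsrGI, XbaI and SspI (digest A) and the other with BamHI, NcoI, ApaL1, NheI and PvuII (digest B). All peaks of both lists were used, 67126 from digest A and 49331 from digest B, or 116457 of the 325035 peaks in the 6 human lists, and peaks of the 2 lists were matched where they shared at least 1 bp. NT2 is an established human embryonal carcinoma line with pluripotent character. Neither NT2 library carries an RNase treatment in its labels. Of the other human lists, used here only for comparison, 3 are also from NT2: DRIP-seq after RNase A, DRIP-seq after RNase H, and DRIPc-seq (2 samples in 1 list). The last is DRIP-seq of K562, a human leukaemia line. The labels name the enzymes of digest A for all 4 of them.

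An R-loop is a structure in which an RNA pairs with one strand of the DNA and leaves the other strand single. Such hybrids form mainly where RNA is transcribed, often over GC-rich promoters and the ends of genes. In DRIP-seq an antibody against RNA:DNA hybrids recovers whole restriction fragments, so a fragment that carries a short hybrid is recovered over its full length, and the position of the cuts bears on where a peak can begin and end. DRIPc-seq sequences the RNA strand of the recovered material instead of the DNA. RNase H degrades RNA that is paired with DNA and removes genuine hybrids, while RNase A degrades free RNA.

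Each digest is 1 library with 1 peak list, so replicate error cannot be given for any comparison, and the enzymes cannot be told apart from any other difference between the libraries. The lists give no read counts, and the depth behind them is unknown. Ranges in parentheses after a share of peaks are 95% limits by the exact Clopper-Pearson method and cover counting error only, since neighbouring peaks are not independent. Positions are on hg19, counted from 1, and carry no gene names, as no gene models of that build were used.

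Digest B gave fewer and longer peaks. Digest A peaks had a median length of 1206 bp (quartiles 567 and 2518 bp), and digest B peaks one of 2841 bp (quartiles 1351 and 5084 bp). Peaks shorter than 500 bp made up 21.4% of digest A and 8.11% of digest B, whereas peaks of 4 kb or more made up 12.8% and 34.9%. The neighbouring peaks of a list lay a median of 2769 bp apart in digest A and 6684 bp apart in digest B. In both lists some neighbours were separated by only 1 bp, 3795 pairs in digest A and 4682 in digest B, so that part of a continuous region was listed as consecutive peaks. Joining these pairs left 63331 digest A and 44649 digest B peaks, with medians of 1198 and 2967 bp.

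In base pairs, most of what digest A covered was also covered by digest B, but not the reverse. The lists had 105.2 Mb in common, which was 77.5% of the digest A bases, 54.0% of the digest B bases and 46.7% of the 225.2 Mb covered by either. Of the 89.6 Mb found with digest B alone, 66.2 Mb lay in digest B peaks that touched a digest A peak and 23.3 Mb in peaks that did not. Digest A alone covered 30.5 Mb, of which 18.5 Mb lay in peaks that touched digest B. The larger part of the difference between the lists therefore lay inside peaks that touched the other list, at their flanks or between pieces, and not in separate peaks.

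The commonest match was 1 peak to 1 peak, but most touching peaks were in larger groups. The 51575 digest A and 34962 digest B peaks that touched each other formed 28127 groups, of which 14854 (52.8%) held 1 peak of each list. A further 8453 groups (30.1%) held several digest A peaks that touched 1 digest B peak. Only 1129 (4.01%) held several digest B peaks that touched 1 digest A peak. The remaining 3691 groups (13.1%) were chains with several peaks of both lists. Of the touching digest A peaks, 28.8% (28.4 to 29.2%) were in one-to-one groups, 41.6% shared a digest B peak with other digest A peaks, and 27.4% were in chains. Of the touching digest B peaks, 42.5% were in one-to-one groups. The chains were few but long, and held 36.6% of all digest A bases and 28.9% of all digest B bases.

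**Figure D1:**
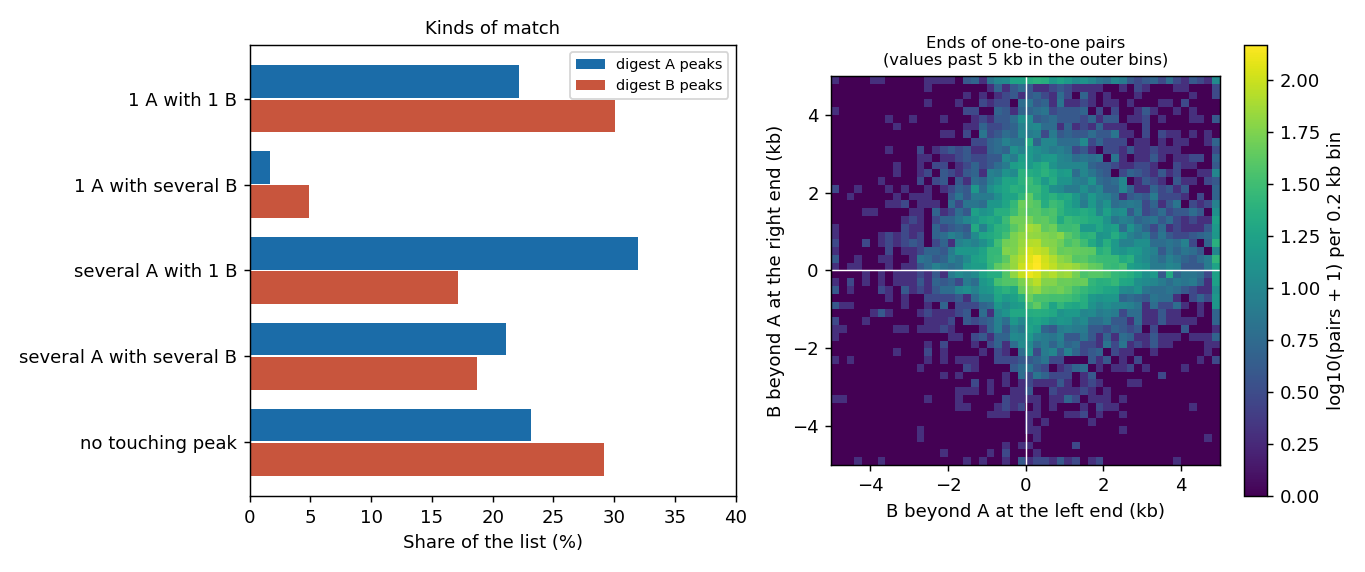
Left, the share of each list (x axis, %) by kind of match, with digest A in blue and digest B in red; several A with 1 B holds 31.9% of digest A, and 1 A with several B holds 1.68%. Right, the 14854 one-to-one pairs by how far digest B passes digest A at the left end (x axis, kb) and the right end (y axis, kb), coloured by log10(pairs + 1) per 0.2 kb bin, with values past 5 kb in the outer bins; digest B passes digest A at both ends in 46.5% of pairs.

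Digest B peaks thus touched several digest A peaks far more often than the other way round. These counts are not matched for length, and no window background was computed for several touches. Digest B peaks were longer (medians 2841 and 1206 bp) and lay opposite 67126 peaks, while digest A peaks lay opposite 49331. Peaks that touched 2 or more had medians of 5868 bp in digest B and 4415 bp in digest A. Of all digest B peaks, 14251 (28.9%) touched 2 or more digest A peaks and 939 touched 5 or more, with at most 17. Of all digest A peaks, 5923 (8.82%) touched 2 or more digest B peaks and 29 touched 5 or more, with at most 12. Where 1 digest B peak touched several digest A peaks and no chain, 67.8% of groups had 2 pieces and 4.93% had 5 or more. The digest B peak had a median length of 5706 bp and the pieces one of 1225 bp, and the pieces covered a median of 54.8% of it. The pieces often passed its ends, and lay wholly inside it in 38.9% of groups. Several digest B pieces lay wholly inside their 1 digest A peak in 12.2% of groups. From first to last, the pieces spanned more than the single peak in 33.5% and 69.4% of groups.

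The 2 kinds of splitting differed in the gaps between the pieces. Digest A pieces that touched 1 digest B peak were a median of 640 bp apart (quartiles 195 and 1306 bp). Of the 12988 gaps between them, 11.6% were the 1 bp separations described above. Digest B pieces that touched 1 digest A peak were a median of 50 bp apart, and 46.0% of the 1297 gaps were of 1 bp. In 42.0% of the groups of this second kind every gap was 1 bp, against 5.80% of the first kind. Separations of more than 1 kb made up 33.9% of the gaps between digest A pieces and 20.7% of those between digest B pieces. Among all neighbouring peaks of a list, 5.66% of gaps in digest A and 9.496% in digest B were of 1 bp, so the lists already differ in this direction. Pieces that touch the same peak are also close by selection. No background was computed for the gaps between them, so how far the contrast belongs to splitting was not tested.

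The regions with the most pieces show both forms. The digest B peak that touched the most digest A peaks was chr1:146410175-146478030 (67.9 kb), with 17 pieces of 476 to 6653 bp that covered 60.7% of it, none of them 1 bp apart. At chr17:71500479-71557268 (56.8 kb) 13 digest A pieces covered 30.7% of the digest B peak, and the widest gap was 10275 bp. At chr22:42687131-42740722 (53.6 kb) 13 pieces covered 35.4%. Digest B peaks at chr9:135971627-136011077 (39.5 kb) and chr11:62309637-62346765 (37.1 kb) also touched 13 digest A peaks each, which covered 92.9% and 86.7% of them. None of these 5 regions touched a peak of the RNase H list, and all 5 touched RNase A and DRIPc peaks. Of the 1006 matched digest B peaks of 16 kb or more, 22.8% touched the RNase H list, 95.4% the RNase A list and 98.3% a DRIPc peak.

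In the other direction, the digest A peak at chr4:49278711-49337231 (58.5 kb) touched 12 digest B peaks, 5 of whose gaps were 1 bp wide and which covered 94.6% of it. The next were chr1:148252378-148328489 (76.1 kb, 10 pieces), chr1:1222155-1295441 (73.3 kb, 8 pieces), chr1:144158770-144224457 (65.7 kb, 7 pieces) and chr17:79398252-79431187 (32.9 kb, 6 pieces). All 5 touched a peak of the RNase H list, as did 48.2% of the 228 matched digest A peaks of 16 kb or more.

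One-to-one pairs show extension without splitting. In 77.4% (76.7 to 78.0%) of the 14854 pairs the digest B peak was the longer, and in 44.7% (43.9 to 45.5%) it was at least 2-fold longer. Digest A was at least 2-fold longer in 5.35% (4.996 to 5.73%). The median lengths were 1465 bp in digest A and 2859 bp in digest B, and the median log2 ratio of digest B to digest A length was 0.84 (quartiles 0.07 and 1.82). In 116 pairs (0.781%) both ends lay within 100 bp.

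In the median pair the extension was on both sides. Over all pairs digest B passed digest A by a median of 452.5 bp on the left (quartiles -115 and 1372 bp). On the right the median was 400.5 bp (quartiles -181 and 1304 bp), with negative values where digest A passed digest B. Digest A lay entirely inside digest B in 46.5% (45.7 to 47.3%) of pairs, with digest B passing it by a median of 881 bp on the left and 872 bp on the right. Digest B lay inside digest A in 8.35% (7.91 to 8.80%) of pairs. In the others the digest B peak was displaced to the left (24.1%) or to the right (21.0%). From 500 bp upwards, the log2 ratio of lengths was smaller the longer the pair. In pairs with a geometric mean length of 250 to 500 bp the median log2 ratio was 1.46. It was 1.60 at 500 to 1000 bp, 1.16 at 1000 to 2000 bp, 0.64 at 2000 to 4000 bp, 0.30 at 4000 to 8000 bp and 0.08 at 8000 to 16000 bp. In bp, the median lengths did not draw closer between 500 and 8000 bp. In digest A and digest B they were 447 and 1327 bp at 500 to 1000 bp, and 4409 and 5741 bp at 4000 to 8000 bp. At 8000 to 16000 bp they were 9006 and 9705 bp.

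The largest extension of digest B in a one-to-one pair was on chromosome 2, where the digest A peak chr2:236459586-236461021 (1.44 kb) lay in the digest B peak chr2:236457121-236486609 (29.5 kb), 25.6 kb of it to the right. The second, chr2:69282268-69309773 in digest B, extended the digest A peak by 23.6 kb to the left. Both touched a DRIPc peak and neither an RNase H or K562 peak. The largest extension of digest A was chr19:40906396-40921371 (14.98 kb), which held a digest B peak of 0.551 kb. Of the 5 pairs with the largest extension of digest A, 4 touched the RNase H list and 1 touched a DRIPc peak. Of the 5 with the largest extension of digest B, none touched the RNase H list and 4 touched a DRIPc peak. These sets differ in length, with digest A peaks of 8.68 to 14.98 kb in the first and 0.297 to 2.20 kb in the second. Of all matched digest A peaks of 8000 to 16000 bp, 26.5% touched the RNase H list and 89.8% a DRIPc peak. At 1000 to 2000 bp the shares were 1.99% and 69.9%.

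A longer peak is more readily touched, so each share was set beside that of all windows of the same length that start 20 to 200 kb from the peak, which keeps the local density of peaks, and beside all windows on the chromosome. These window shares were computed from the gaps between peaks and describe the background without a test. Over all lengths, 76.8% of digest A peaks touched digest B, against 24.9% of local windows and 11.1% of windows on the chromosome. For digest B peaks touching digest A, the values were 70.9%, 24.7% and 11.3%.

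**Figure D2:**
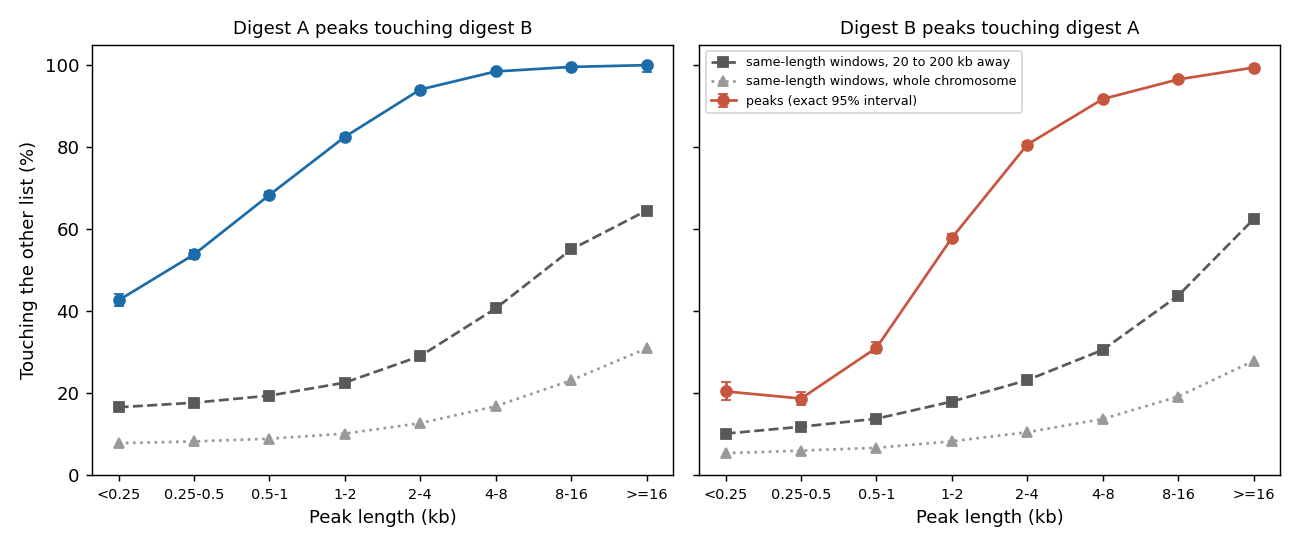
Share of peaks touching the other list (y axis, %) by peak length (x axis, kb), for digest A (left, blue) and digest B (right, red), with exact 95% intervals; squares and triangles give the share of same-length windows 20 to 200 kb away and on the whole chromosome. At 250 to 500 bp, 53.9% of digest A peaks were touched, against 17.7% of local windows, and 18.7% of digest B peaks, against 11.9%.

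Short peaks of the 2 digests fared differently. Digest A peaks under 250 bp touched digest B in 42.7% (41.3 to 44.1%) of cases, 2.57 times the 16.6% of local windows. Digest B peaks under 250 bp touched digest A in 20.5% (18.4 to 22.7%) of cases, against 10.2% of local windows. At 250 to 500 bp the digest B share was 18.7% (17.3 to 20.3%), 1.58 times the local windows, and at 500 to 1000 bp it was 31.1% (29.9 to 32.4%), while digest A peaks of these lengths reached 53.9% and 68.4%. At 2000 to 4000 bp both shares were high, 94.1% (93.6 to 94.5%) for digest A and 80.7% (80.0 to 81.3%) for digest B. From 8000 to 16000 bp they were 99.6% and 96.5%, but local windows of that length were also touched in 55.1% and 43.8% of cases.

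At like length, then, digest A peaks were matched more often than digest B peaks in every length class. When digest A peaks were weighted to the lengths of digest B peaks, 87.4% (SE 0.103) touched digest B, against 70.9% of digest B peaks touching digest A. When digest B peaks were weighted to the lengths of digest A, 52.7% (SE 0.243) touched digest A, against 76.8% in the other direction. A digest A peak lay opposite a list that covered 194.8 Mb, and a digest B peak opposite one of 135.7 Mb. The local windows reflect this: weighted to digest B lengths, 31.8% of digest A windows touched digest B, and weighted to digest A lengths, 18.8% of digest B windows touched digest A.

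Peaks seen with one digest alone numbered 15551 for digest A (median 543 bp, 11.9 Mb) and 14369 for digest B (median 1080 bp, 23.3 Mb). Long ones were mostly of digest B, with 1132 peaks of 4 kb or more against 108 for digest A. Most lay close to a peak of the other list. Digest A only peaks had a median distance of 2706 bp to the nearest digest B peak, and 77.2% (76.6 to 77.9%) lay within 10 kb, against 39.6% of local windows that touched no digest B peak. For digest B only peaks the median distance to digest A was 4835 bp, and 64.4% (63.6 to 65.2%) lay within 10 kb, against 32.5% of such windows. Only 274 digest A only peaks (1.76%) and 771 digest B only peaks (5.37%) were more than 100 kb from the other list.

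Most digest-specific peaks had another unmatched peak of the same list beside them. Of all peaks, 23.2% of digest A and 29.1% of digest B were unmatched, so such neighbours arise in any order. The share that a random order would give was not computed. Runs of 5 or more consecutive peaks of a list without a match held 10.96% of digest A only and 15.3% of digest B only peaks. Of these unmatched peaks, 39.0% in digest A and 35.6% in digest B stood singly between matched peaks. The longest run of digest A had 21 peaks at chr15:77932741-78102461, where digest B had 5 peaks elsewhere in the span. DRIPc and RNase A had 7 peaks each there, RNase H had 3 and K562 none. The second had 17 peaks over 108.3 kb at chr20:61942652-62050975, with no digest B, DRIPc or K562 peak in the span but 15 RNase A and 6 RNase H peaks. The longest run of digest B had 16 peaks at chr7:27890924-28123125, with 18 DRIPc, 6 RNase A and 1 RNase H peak and no K562 peak. The next 2 had 13 peaks each. The run at chr19:30731423-31093031 held 24 DRIPc peaks and none of RNase A, RNase H or K562, and the run at chr7:34230100-35036571 held 51 DRIPc, 7 RNase A, 2 RNase H and 1 K562 peak. These runs were chosen after their lengths were seen. They spanned 108.3 to 806.5 kb, and the number of peaks that other spans of these lengths hold was not computed.

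The 5 longest digest A peaks without a match lay 0.467 to 19.1 kb from digest B. The first, chr15:77303442-77313748 (10.3 kb), ended 0.467 kb from a digest B peak, and chr19:18374355-18383467 (9.11 kb) was 2.20 kb away. The others were chr9:132429540-132439557 (10.02 kb), chr21:47311449-47320411 (8.96 kb) and chr19:41321297-41329526 (8.23 kb), at 19.1, 4.59 and 3.00 kb. All 5 touched the RNase A list, 4 touched the RNase H list and 1 touched a DRIPc peak. Among the 100 digest A only peaks of 4000 to 8000 bp, all shorter than these 5, the shares were 90%, 42% and 26%. Among digest B the longest were chr6:161033534-161068172 (34.6 kb), chr1:121426250-121455027 (28.8 kb), chr20:34763156-34789792 (26.6 kb), chr1:48833398-48853931 (20.5 kb) and chr4:52660396-52680878 (20.5 kb). Their distances to digest A were 92.4, 7.46, 3.52, 133.7 and 27.4 kb. None touched the RNase H or K562 list, 3 touched the RNase A list and 3 touched a DRIPc peak. The 153 digest B only peaks of 8000 to 16000 bp were all shorter than these 5. Of them, 4.58% touched the RNase H list and 22.9% the K562 list. The RNase A list was touched by 41.8% of the 153 and a DRIPc peak by 90.2%.

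The other human lists separated the 2 kinds of digest-specific peaks. None of the 4 lists was touched by 28.8% (28.1 to 29.5%) of digest A only and 35.6% (34.8 to 36.4%) of digest B only peaks. For matched peaks, which are longer, the shares were 6.04% in digest A and 3.54% in digest B. Of digest A only peaks, 28.8% (28.0 to 29.5%) touched a DRIPc peak, against 60.9% of matched digest A peaks after weighting to the same lengths and 17.4% of local windows. Of digest B only peaks, 51.6% (50.8 to 52.4%) touched a DRIPc peak. Weighted to the lengths of digest A only peaks, this was 40.9%, close to the 42.0% of matched digest B peaks weighted in the same way (SE 0.478 and 0.864). Long digest B only peaks were nearly as often in DRIPc-seq as matched ones, 85.4% (83.0 to 87.6%) against 89.3% (88.7 to 89.9%) at 4000 to 8000 bp.

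For the RNase A and K562 lists, cut with the enzymes of digest A as the DRIPc samples were, the order was the opposite. Digest A only peaks touched the RNase A list in 41.5% (40.7 to 42.3%) of cases and the K562 list in 31.5% (30.8 to 32.2%), against 17.6% and 14.5% of local windows. Digest B only peaks did so in 19.6% (19.0 to 20.3%) and 13.02% (12.5 to 13.6%) of cases, against 13.5% and 10.48% of windows. At the lengths of digest A only peaks, the digest B values were 14.5% and 10.1%, near the 12.0% and 9.39% of windows. On each of the 24 chromosomes, the unmatched peaks of either digest touched the RNase A, DRIPc and K562 lists less often than the matched peaks did, but these counts are not matched for length and matched peaks are longer. For digest B peaks under 250 bp, unmatched ones touched a DRIPc peak in 33.3% (30.5 to 36.1%) of cases and matched ones in 29.6% (24.4 to 35.2%).

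The unmatched peaks of the digests also differed in the RNase H list. Of digest A only peaks, 6.57% (6.18 to 6.97%) touched the RNase H list, 3.39 times the 1.94% of local windows, and matched digest A peaks of like length did so in 2.93% (SE 0.119) of cases. The share was higher in digest A only than in matched peaks on 22 of 24 chromosomes, although matched peaks are longer. Among digest A only peaks of 2000 to 4000 bp it was 16.6% (14.1 to 19.4%), against 3.34% (3.03 to 3.67%) of matched peaks of that length. Of digest B only peaks, 139 of 14369, or 0.967% (0.814 to 1.14%), touched the RNase H list, fewer than the 1.38% of local windows, and the share was below that of matched digest B peaks on all 24 chromosomes, again without matching for length. The RNase H library was cut with the enzymes of digest A, so treatment and digest cannot be told apart in these shares.

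Counted in base pairs, the stretches of touching peaks beyond the other list had the same order. The 66.2 Mb of touching digest B peaks outside digest A, gaps between pieces included, were covered by DRIPc peaks to 48.3%, by the RNase A list to 17.6%, by K562 to 13.2% and by the RNase H list to 0.411%. The 18.5 Mb of touching digest A peaks outside digest B were covered to 19.8% by DRIPc, 65.0% by RNase A, 57.2% by K562 and 7.51% by RNase H. For the 105.2 Mb common to both digests the values were 60.2%, 73.9%, 62.8% and 4.07%, and for all positions of the chromosomes 7.23%, 4.84%, 3.76% and 0.497%. The 13.1 Mb between digest A pieces that touched 1 digest B peak were covered by DRIPc to 60.4%. This was as much as for the bases common to both digests. The RNase A list covered 26.4% of the 13.1 Mb.

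**Figure D3:**
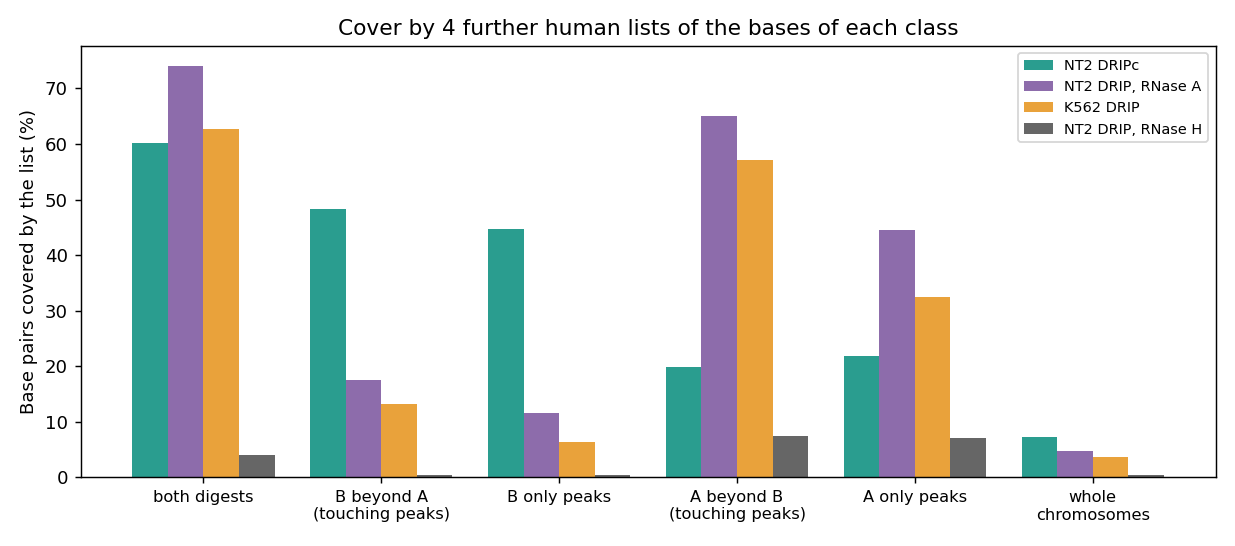
Share of base pairs (y axis, %) of each class (x axis) covered by NT2 DRIPc, RNase A, K562 and RNase H peaks. Bases of digest B alone were covered most by DRIPc (48.3% in touching peaks beyond digest A, 44.7% in digest B only peaks). Those of digest A alone were covered most by RNase A (65.0% and 44.5%), followed by K562 (57.2% and 32.4%).

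Edges of digest A peaks met those of lists cut with the same enzymes more often than those of digest B. Among digest A peaks that touched the RNase A list, 15.1% (14.8 to 15.3%) of edges had a like edge, start to start or end to end, within 50 bp, against the 1.19% that the density of such edges 1 to 5 kb away would give. For K562, another cell line cut with the same enzymes, the share was 13.4% (13.2 to 13.7%) against 1.34%. For the RNase H list it was 8.26% (7.62 to 8.94%) against 0.989%. For digest B, from the same cell line with other enzymes, it was 2.74% (2.65 to 2.84%) against 1.03%. Seen from digest B, the shares were low in all lists: 4.05% with digest A, 3.21% with RNase A, 3.31% with K562 and 2.40% with RNase H, each 2.29 to 2.60 times the density value. The library and the enzymes changed together here too.

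**Figure D4:**
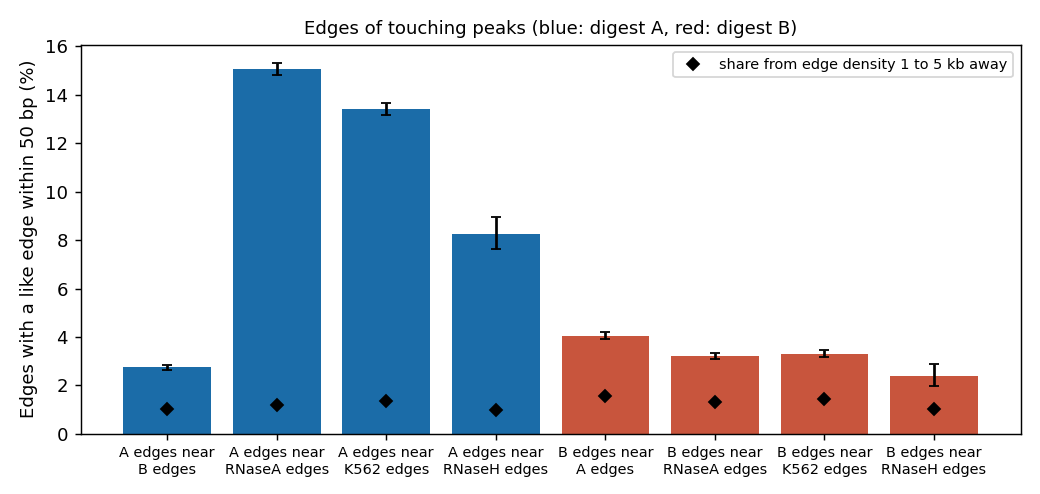
Share of edges of touching peaks with a like edge within 50 bp in another list (y axis, %), for edges of digest A (blue) and digest B (red), with exact 95% intervals; diamonds give the share from the density of edges 1 to 5 kb away. Digest A edges met 15.1% of the time with the RNase A list and 13.4% with K562, but 2.74% with digest B.

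The places where 2 peaks of a list are 1 bp apart were compared in the same way. Of the 3795 in digest A, 8.85% (7.97 to 9.80%) lay within 50 bp of an edge in the RNase A list and 7.77% (6.94 to 8.67%) of one in K562, where edge density gave 3.06% and 3.14%. For edges in digest B it was 1.37% (1.03 to 1.79%), below the 2.15% from density. For the RNase H list, which has few peaks, it was 0.448% against 0.278%. Within 50 bp of a like place lay 52 of the 3795 in the RNase A list, 43 in K562, 15 in digest B and none in the RNase H list, or 1.37%, 1.13%, 0.395% and 0%, where density gave 0.216%, 0.170%, 0.259% and 0.00198%.

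Across the genome the 2 lists had much the same regional pattern. In 313 bins of 10 Mb, covered length in digest A and digest B rose and fell together, with Spearman's rho of 0.983 and Pearson's r of 0.976 on log2 values, given as descriptions since bins share their gene and base content between the lists. Digest B covered more than digest A in 305 bins, and the median bin had 1.65 times the length in digest B. After this median was subtracted, 1 of 313 bins (0.319%) was past 2-fold, on chromosome Y from 20 to 30 Mb, with 19 digest A and 4 digest B peaks. Among the 297 bins with at least 50 peaks none was past 2-fold, and the SD of the log2 ratio was 0.34. These ratios had 20 kb added to both lengths, and the count rests on it: with nothing added, 8 of 313 bins (2.56%) were past 2-fold, 4 of them among the 297.

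Among the 297 bins with at least 50 peaks, the gain in digest B was largest where peaks were sparse. Bins with fewer peaks were not ranked, and their ratios varied. Examples are 1.31 on chromosome 4 from 130 to 140 Mb and 4.34 on chromosome X from 90 to 100 Mb. In the 75 ranked bins with the least cover, averaged over both lists, digest B covered 2.21 times the length of digest A. In the 74 with the most cover it was 1.24 times. In the sparsest bins 57.6% of digest B peaks touched digest A, and in the densest 78.4%. For digest A peaks the shares were 70.9% and 79.1%. No window background was computed for these bins, and denser bins hold more peaks to touch. Per Mb, digest A only peaks numbered 1.92 in the sparsest bins and 11.1 in the densest, and digest B only peaks 2.58 and 7.55. In the 2 sets of bins between them, digest A only peaks numbered 3.59 and 5.68 per Mb and digest B only peaks 4.33 and 5.84.

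**Figure D5:**
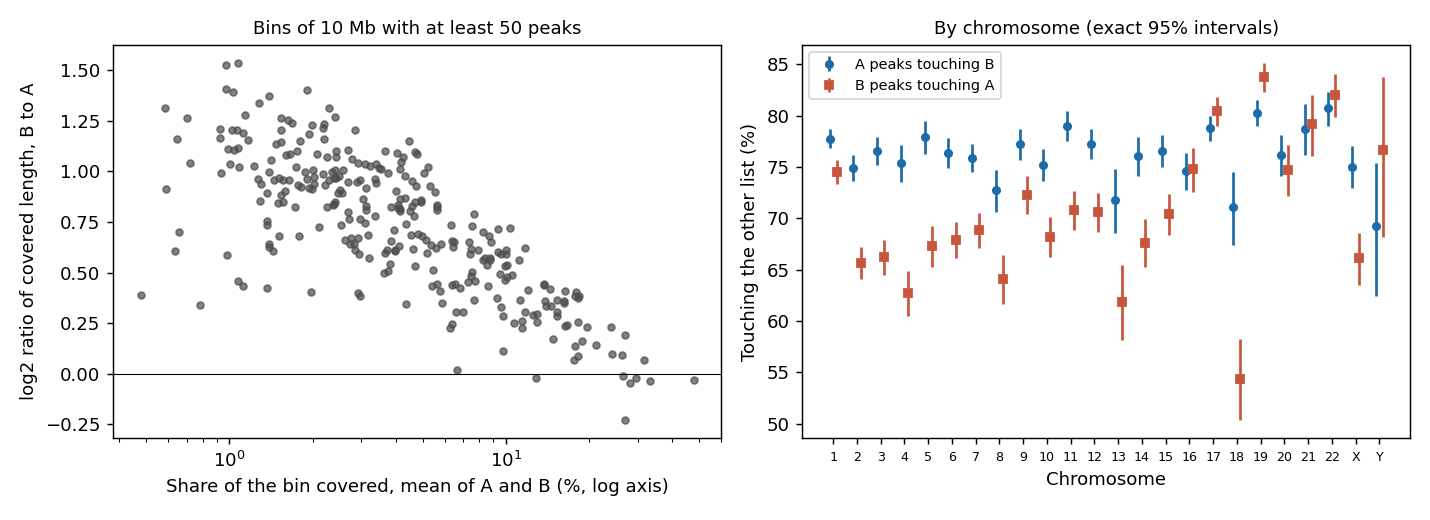
Left, log2 ratio of covered length, digest B to digest A (y axis), in 297 bins of 10 Mb against the share of the bin covered, averaged over both lists (x axis, %, log axis). Right, by chromosome, the share of digest A peaks touching digest B (blue) and the reverse (red), with exact 95% intervals; red runs from 54.3% on chromosome 18 to 83.7% on chromosome 19.

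The same order was seen by chromosome. The share of digest B peaks touching digest A ran from 54.3% (50.3 to 58.3%) on chromosome 18 and 61.8% on chromosome 13, both gene-poor, to 82.0% on chromosome 22 and 83.7% (82.3 to 85.2%) on chromosome 19, the latter known for its high gene density. The share of digest A peaks touching digest B varied less, from 69.2% (62.5 to 75.4%) on chromosome Y to 80.7% (79.0 to 82.3%) on chromosome 22. Neither share was set beside same-length windows by chromosome. Digest A had 8.37 peaks per Mb on chromosome 18 and 68.1 on chromosome 19. Digest B peaks had medians of 2285.5 and 3400 bp there, so the background of touching differs too. Covered length in digest B was 2.23 times that in digest A on chromosome 18 and 1.05 times on chromosome 19. Of the 24 chromosomes, digest B peaks were matched more often than digest A peaks on 16, 17, 19, 21, 22 and Y, and of these only chromosome 19 had intervals that did not overlap.

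Among bins with at least 50 peaks, the highest ratios of digest B to digest A were on chromosome 13 from 40 to 50 Mb (169.1 against 45.1 kb), chromosome 18 from 60 to 70 Mb (153.5 against 40.3 kb) and chromosome 5 from 100 to 110 Mb (150.3 against 44.1 kb). Chromosome 11 from 100 to 110 Mb and chromosome 8 from 80 to 90 Mb followed. The lowest were at the ends of chromosomes, on 20 from 60 to 63.0 Mb (733.2 against 864.3 kb), on 17 from 80 to 81.2 Mb (329.6 against 341.2 kb) and on 9 from 140 to 141.1 Mb (532.9 against 545.0 kb), and on the first 20 Mb of chromosome 19. On the bin of chromosome 20, 90.1% of digest B peaks touched digest A and 65.8% of digest A peaks touched digest B.

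In the 5 Mb at the end of each chromosome with the highest positions, digest A only peaks touched the RNase H list in 13.1% (11.3 to 15.02%) of 1287 cases, and in 5.98% (5.60 to 6.38%) of cases elsewhere. Matched digest A peaks did so in 7.83% (7.06 to 8.66%) and 4.35% (4.17 to 4.54%). For digest B only peaks the values were 1.64% (0.876 to 2.79%) of 793 and 0.928% (0.774 to 1.10%). Digest A only peaks thus exceeded matched ones in both places.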

How the data were processed

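The peak lists were used as deposited by the authors, who gave a start and an end in base pairs for each peak and neither height nor score. Bismark 0.7.7, BWA 0.6.1 and TopHat2 2.0.5 appear in the submitters' processing notes, none of them assigned to a file. The notes name hg19 among the builds, and positions were taken as hg19. For the peak caller and its threshold, nothing was given in the sources used here. Samples were grouped by the enzymes in the labels. Positions were read as BED intervals, so neighbours 1 bp apart would abut if ends were counted otherwise.

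Touching peaks were joined into groups by connected components. Window shares were computed exactly from the gaps between peaks, with chromosome ends set by the highest position among the human lists. Weighting used 8 length classes with bounds from 250 to 16000 bp. Ratios of covered length had 20 kb added to both. Shared counts were the same with bedtools 2.31.1. Python 3.11.15, numpy 2.4.6, pandas 2.3.3, scipy 1.17.1 and matplotlib 3.10.9 were used, and the functions were tested on simulated lists.

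Named regions were the 5 longest unmatched peaks of each list, the 5 peaks of each touching the most peaks of the other, the 5 one-to-one pairs with the largest extension in either direction, the 5 bins with the highest and lowest ratio, and the chromosomes at either end of each share. No gene was named, since the annotation at hand is of another build. The comparisons, region rules and classes were chosen with earlier results of these data known. RNA-seq, MethylC-seq and mouse lists were not used here.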

Additional observations from a re-analysis of the deposited data

How the results depend on the processing

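No paired analysis was possible because each digest has 1 list and no test was run. Counting a peak as matched only when 50% or more of it was covered lowered the share of digest A peaks matched from 76.8% to 68.2%, that of digest B from 70.9% to 42.4%, and that of digest A at digest B lengths from 87.4% to 77.8%. With the longest 50% of each list these were 77.3%, 74.9% and 89.2%, the one-to-one share was 35.1% in place of 28.8%, and 55.1% of unmatched digest A peaks lay within 10 kb of digest B in place of 77.2%. Merging peaks within 1 kb gave 73.2%, 69.0% and 84.6%, raised the one-to-one share to 54.4% and lowered the log2 length ratio from 0.84 to 0.54. An overlap of at least 500 bp gave 36.6% and 0.72. Within 5 kb lay 63.3% of unmatched digest A peaks and within 50 kb 95.8%. The share of bins past 2-fold, 0.319% as reported, was 0% with bins of 5 Mb, 0% with 100 kb added and 1.28% (4 bins) by number of peaks.

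After the data were examined, the share of bins was also computed with no length added, which gave 2.56%, and pairs with 1 bp between them were merged, which gave 75.7% and 70.1% matched, 31.9% one-to-one and a log2 ratio of 0.78. Leaving out peaks that touch the RNase H list gave 74.8%, 69.0%, 85.0% at digest B lengths, 30.3% one-to-one and 75.5% within 10 kb. Digest B stayed the longer in the median pair under all 5 alternatives run. Depth is unknown, so the absence of a peak says only that none was listed.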
